A study of Mus musculus with 9 samples.

Results

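The genes described here are those whose signal differed from the wild-type line by at least 2-fold, in the same direction, in each of 2 mouse epithelial cell lines that lack Gprc5a. Of 18193 genes measured, 529 met this rule, 144 of them higher and 385 lower in both null lines. Tracheal epithelium of a mouse aged 3 weeks with intact Gprc5a gave the non-tumorigenic wild-type line. A Gprc5a-knockout animal, also aged 3 weeks, gave the knockout line, likewise tracheal and non-tumorigenic. The sample titles, however, call the cells of both lines normal lung epithelial cells. The tumour line is MDA-F471, established out of a lung adenocarcinoma in a female Gprc5a-knockout mouse that was killed 16 months after the tobacco carcinogen NNK had been injected into the peritoneum. All 3 lines come from mice of C57/BL6 x sv129 background and were grown in culture. RNA of each line was hybridised to 3 arrays of the Affymetrix MG-430 2.0 type, giving 9 arrays.

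Each genotype rests on very few lines: 1 line carries the intact gene, and no line had the gene put back. Line, handling and genotype therefore cannot be told apart, and the tumour line also differs in organ, carcinogen exposure and age of the mouse. The labels do not say whether arrays of a line came from separate cultures, so every limma p-value below measures only the spread between arrays, which may be technical. Both differences from wild-type use the same 3 wild-type arrays, so a deviation in that line alone moves both null lines the same way. Signals are on a log2 scale, on which a difference of 1 is 2-fold. A floor of 5.15, the 95th percentile of 27 bacterial control probe sets, marks where a signal cannot be told from background, and a fold against a group whose 3 arrays all lie under it is given as a lower bound.

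Gprc5a encodes an orphan G protein-coupled receptor that retinoic acid induces and that acts as a lung tumour suppressor in mice. Airway basal cells in culture can take on squamous differentiation, in which cells make a cornified envelope: small proline-rich, late cornified envelope and filaggrin-type proteins are cross-linked under the membrane by transglutaminases, while kallikreins and their inhibitors control shedding. Retinoic acid is a known suppressor of that programme in airway epithelium.

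The deleted gene was examined first. Gprc5a read 8.63, 8.74 and 8.32 on the wild-type arrays, 7.20, 7.09 and 7.18 on the knockout arrays and 6.96, 7.02 and 7.09 on the tumour arrays. The null arrays lay below all wild-type arrays, with a difference of the mean of the null lines of -1.48 (limma, adjusted p = 8.00e-09). The signal did not reach the floor in either null line, and only 1 probe set with 1 symbol reports the gene, so it is not known whether this probe set lies in the deleted part. The 2 null lines did not differ beyond the array spread, at -0.13 with SE 0.11 (limma, adjusted p = 0.370). Of its relatives, Gprc5b differed by -0.39 and Gprc5c by -0.44 in the mean of the null lines, and neither met the rule.

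The library checks were read once for all genes. Array medians ran from 6.28 to 6.34. The hybridisation control BioB-M was dimmer for tumour samples, at 7.60 to 8.24, than for the other 6 arrays, at 8.32 to 9.48. Title numbers of the tumour samples also stand apart. The 3' minus 5' signal of beta-actin, a measure of RNA integrity, differed by -0.46 between null and wild-type arrays (exact two-sided permutation test over 84 splits, p = 0.143), and that of Gapdh by -0.315 (p = 0.19). This test pooled the 6 null arrays, so the gap between the null lines enters its spread and arrays of a line count as separate. Tumour arrays read 0.369 to 0.738 for beta-actin, below the 0.9 to 0.953 of knockout and the 0.75 to 1.783 of wild-type arrays. What part these measures have in the differences below was not tested.

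The label of airway epithelium was set against cell type markers. The basal keratins Krt5 and Krt14 were high in wild-type cells, at means of 14.46 and 14.52, and in knockout cells, at 14.38 and 14.68. In the tumour line they read 8.43 and 7.25. The summed signal of the 15 basal cell markers ran from 163 to 166 in wild-type, 154 to 155 in knockout and 109 to 110 in tumour arrays, and 4 of the 15 (Trp63, Pdpn, Aqp3 and Dsc3) were lower in both null lines. The summed signal of the 11 alveolar type II markers was 70.4 to 72.0 in wild-type, 71.5 to 72.7 in knockout and 73.7 to 75.4 in tumour arrays. Limma called 1 of them, the surfactant protein Sftpd, higher in tumour cells, beside 8.09% of all genes. Sftpc, another surfactant protein, read 5.78 in wild-type, 5.74 in knockout and 5.72 in tumour, and Nkx2-1, the lung lineage transcription factor, 5.18, 5.47 and 5.35. Of other lists, 1 of 9 alveolar type I markers (Pdpn, also a basal marker) was lower in both null lines, whereas 0 of 11 ciliated, 0 of 13 secretory, 0 of 11 alveolar type II, 0 of 8 neuroendocrine, 0 of 12 fibroblast, 0 of 10 endothelial and 0 of 12 leukocyte markers met the rule. The share of all genes was 2.91%, so a count of 0 in lists this short says little. Under the floor on all arrays were 2 ciliated, 4 secretory, 3 neuroendocrine, 2 fibroblast, 4 endothelial and 3 leukocyte markers. The summed secretory signal ran from 85.6 to 85.9 in wild-type, 89.7 to 93.4 in knockout and 74.5 to 75.7 in tumour arrays. Limma called 1 of the 13 markers higher in knockout cells, beside 1.9% of all genes, and 2 lower in tumour cells. In tumour cells 16.6% of all genes were called in either direction. The part of the secretory signal in the differences below was not tested. The summed leukocyte signal was 71.0 to 71.8 in wild-type, 71.2 to 72.4 in knockout and 70.4 to 71.4 in tumour arrays, and that of fibroblasts 66.9 to 68.5, 67.4 to 67.6 and 67.7 to 68.5. Smooth muscle gave 2 of 9, Acta2 and Smtn, but the Acta2 difference of the mean of the null lines went from -2.21 to -0.12 when probe sets ending in _x_at or _s_at, which can bind several transcripts, were left out.

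The rule selects 0.792% of all genes as higher and 2.12% as lower, 2.91% together. For scale, limma called 4.88% of genes between the knockout and wild-type lines, 16.6% between the tumour and wild-type lines, and 8.2% for the mean of both null lines (3.39% higher and 4.8% lower), at an adjusted p under 0.05 and at least 2-fold. For all 529 members the 6 null arrays lay on one side of the 3 wild-type arrays, as for 21.3% of all genes, and nothing is read from this since the rule favours it. Of the higher members, 85 had another probe set above the floor, and for 49 of them such a probe set was also 2-fold higher in both lines. For the lower members these numbers were 167 and 102. No other probe set met the rule in the opposite direction. A further 38 genes were at least 2-fold higher in knockout cells and 2-fold lower in tumour cells, and 31 were the reverse. Because the rule uses the differences from wild-type, those differences are a description of the members and carry no test. Median differences of the higher members were 1.50 in knockout cells and 2.02 in tumour cells, and of the lower members -1.61 and -2.31. Over all genes, the medians were -0.0042 and 0.0101. At 4-fold in both lines, 33 were higher and 118 lower, and at 16-fold, 3 and 22. Of the higher members, 12 had all wild-type arrays under the floor, and of the lower members, 43 had all null arrays under it. For 2 lower members all wild-type arrays lay under the floor, so their differences lie within background.

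**Figure D1:**
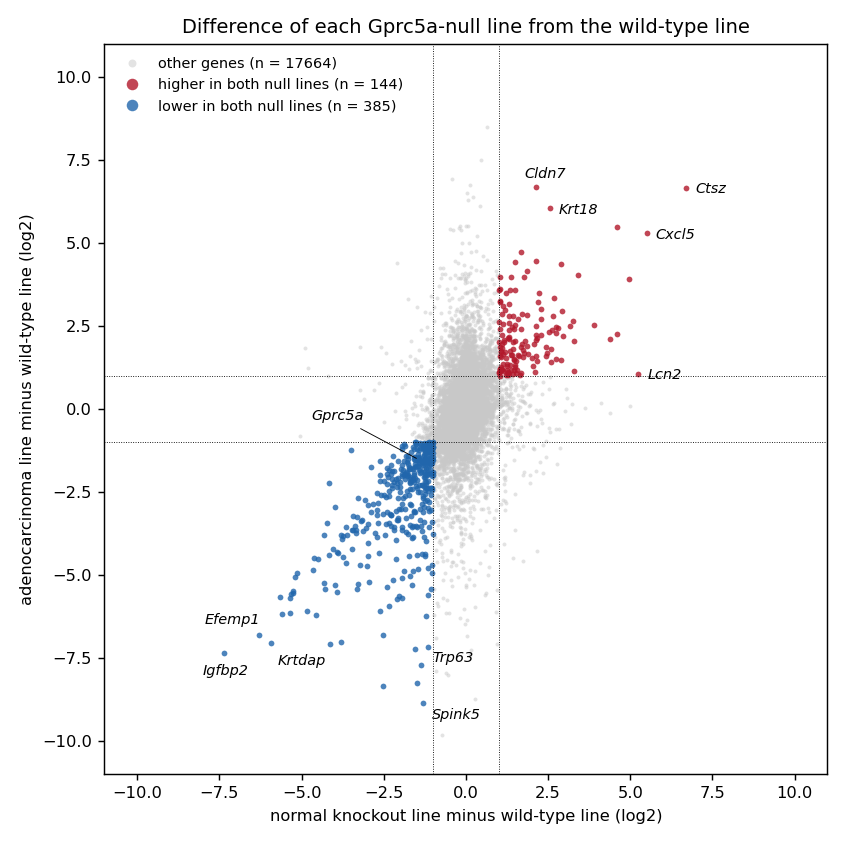
Each point is 1 of 18193 genes; the x axis gives knockout minus wild-type and the y axis tumour minus wild-type, both in log2, and dotted lines mark 2-fold. The 144 higher members (red) and 385 lower members (blue) lie outside the dotted lines in the upper right and lower left, Ctsz and Igfbp2 sit near the diagonal, and Spink5 and Trp63 are much further from 0 in tumour cells.

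Members near the limit show where the rule falls. Just inside it were Gtse1, Cystm1 and Arsb among the higher genes, with smaller differences of 1.0, 1.0 and 1.01, and Eci2, Fgfr2 and Il1f5 among the lower ones, at -1.0, -1.01 and -1.01. Just outside were Pgrmc2, Bbs12 and Rap2a, at 0.9975, 0.9951 and 0.9869, and Dlk1, Pde8a and Ifi204, of which the latter pair read -0.9998 and -0.9981. These genes differ from their neighbours by less than their standard errors.

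The sequences before the transcription start of members are shown here for the cornified-envelope genes. Of the lists used, these make up the largest group of the common change, and many lie side by side. Of 529 members, 387 had a promoter in the RefSeq table (GRCm38.p6), 104 higher and 283 lower. In all, 9 motifs were searched on both strands of the 250 bases before the start. The TATA box, searched as TATAAA, was present in 15.2% of lower, 7.69% of higher and 9.01% of all 14368 promoters. Among the 25 lower cornified-envelope members with a promoter, 11 held it (44.0%): Flg, Hrnr, Krtdap, Lce1d, Lor, Rptn, Sprr1a, Sprr1b, Sprr2i, Sprr3 and Tgm3. Several of these belong to the same families. The cornified-envelope genes outside the members were not counted, so the share is not shown to be particular to members. The 7 below, chosen after the matches were seen, carry it 30 to 53 bases before the start. Each is printed 5' to 3' on the gene's strand, the 100 bases before the start, with the box in capitals; the coordinates are chr7:30787805-30787904 (plus strand) for Krtdap, chr3:93393599-93393698 (plus) for Rptn, chr3:92687211-92687310 (minus) for Lce1d, chr3:92485882-92485981 (minus) for Sprr1a, chr3:92438780-92438879 (minus) for Sprr1b, chr3:92458721-92458820 (minus) for Sprr3 and chr3:93273446-93273545 (plus) for Flg.
Krtdap: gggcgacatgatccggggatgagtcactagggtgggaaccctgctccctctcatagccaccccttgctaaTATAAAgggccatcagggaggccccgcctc
Rptn: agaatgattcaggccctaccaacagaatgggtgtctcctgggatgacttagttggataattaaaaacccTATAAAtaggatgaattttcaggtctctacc
Lce1d: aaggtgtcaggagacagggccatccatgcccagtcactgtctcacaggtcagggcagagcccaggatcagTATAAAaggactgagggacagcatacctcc
Sprr1a: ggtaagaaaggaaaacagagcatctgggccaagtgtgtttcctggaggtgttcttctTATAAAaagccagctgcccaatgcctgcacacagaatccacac
Sprr1b: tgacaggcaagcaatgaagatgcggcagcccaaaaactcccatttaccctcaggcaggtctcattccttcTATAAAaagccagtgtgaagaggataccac
Sprr3: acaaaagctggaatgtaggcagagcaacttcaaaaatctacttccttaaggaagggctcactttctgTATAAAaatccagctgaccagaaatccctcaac
Flg: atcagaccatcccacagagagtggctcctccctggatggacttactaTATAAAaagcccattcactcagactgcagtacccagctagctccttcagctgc

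Igfbp2 and Ctsz, which head the lower and higher members by the smaller measured difference of both lines, are shown for contrast, with the GC box, searched as GGGCGG, in capitals. Igfbp2 (chr1:72824380-72824479, plus) holds it at 98 and 37 bases before the start, and Ctsz (chr2:174439040-174439139, minus) in overlapping copies at 32 and 27.
Igfbp2: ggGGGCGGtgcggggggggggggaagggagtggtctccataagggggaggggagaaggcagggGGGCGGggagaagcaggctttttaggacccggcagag
Ctsz: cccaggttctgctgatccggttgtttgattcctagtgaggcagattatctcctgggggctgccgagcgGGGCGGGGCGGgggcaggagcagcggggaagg

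The GC box was in 56.7% of higher, 51.6% of lower and 7179 of all 14368 promoters. The NF-kB motif was in 34.6% of higher, 26.5% of lower and 21.2% of all. The AP-1 motif TGANTCA was in 3.85%, 9.19% and 5.55%, and the interferon response element in 5.77%, 3.89% and 2.64%. For the E-box CACGTG the shares were 7.69%, 9.54% and 7.57%, and for the TEAD motif GGAATG 8.65%, 13.1% and 11.4%. The antioxidant response motif TGACNNNGC was in 14.4%, 10.6% and 11.7%, and the retinoic acid receptor motif AGGTCA in 10.6%, 11.3% and 12.2%. A match is only a run of letters and says nothing of binding.

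Among genes lower in both null lines, cornified-envelope genes were the largest group of the lists used, which were chosen with earlier results of these data known. Of 42 measured, 27 were lower in both and 0 higher, and the median of the 42 was -1.65 in knockout cells and -2.56 in tumour cells. Krtdap, a secreted protein of differentiating keratinocytes, read 12.19, 11.54 and 12.04 in wild-type, 5.79, 6.20 and 5.96 in knockout and 4.76, 5.06 and 4.74 in tumour arrays. No null array came within 5 log2 units of a wild-type array, and the difference was 61.3-fold in knockout cells and at least 109-fold in tumour cells. Rptn, a filaggrin-type matrix protein, read 11.91, 11.25 and 11.42, then 7.22, 7.93 and 8.01, then 4.55, 4.42 and 4.49, in the order wild-type, knockout and tumour that is kept for all such triplets. Here the 2 null lines stood apart by 3.23 log2 units, with the tumour line lower (limma, adjusted p = 2.1e-09). Filaggrin itself, Flg, read 7.27, 6.59 and 7.0 in wild-type and lay under the floor on every null array, at least 3.5-fold lower. Loricrin (Lor), a bulk protein of the envelope, read 9.96, 9.38 and 9.66, then 7.66, 7.99 and 7.95, then 7.25, 7.09 and 7.27.

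The 9 late cornified envelope and 4 small proline-rich members of the list were also below wild-type on every null array. Sprr1b read 10.71, 10.24 and 10.12 in wild-type, 5.56, 5.37 and 5.64 in knockout and 4.32, 4.21 and 4.25 in tumour arrays. Sprr1a read 12.70, 12.50 and 12.36, then 9.77, 10.73 and 10.07, then 9.98, 10.14 and 9.55, so that its null lines overlapped each other while both stayed below wild-type. Lce3a was 38.0-fold lower in knockout cells and 45.2-fold lower in tumour cells. The Lce and Sprr genes are families of near-identical copies, and their probe sets may share signal. The transglutaminases, which cross-link the envelope, were lower by 10.4-fold and 11.6-fold for Tgm3 and by 3.8-fold and 2.3-fold for Tgm1. Ivl, involucrin, was not a member: it was lower in knockout cells at -1.47 and higher in tumour cells at 1.23. Of the 27 members, 6 differed between the null lines by at least 2-fold (limma, adjusted p under 0.05). The share was 31.2% over all lower members and 14.2% over all genes. At any size of difference, 12 of the 27 had an adjusted p under 0.05. The count of lower members in this list was 22 to 28 under the other normalizations, the dim filter and the other ways of choosing probe sets.

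**Figure D2:**
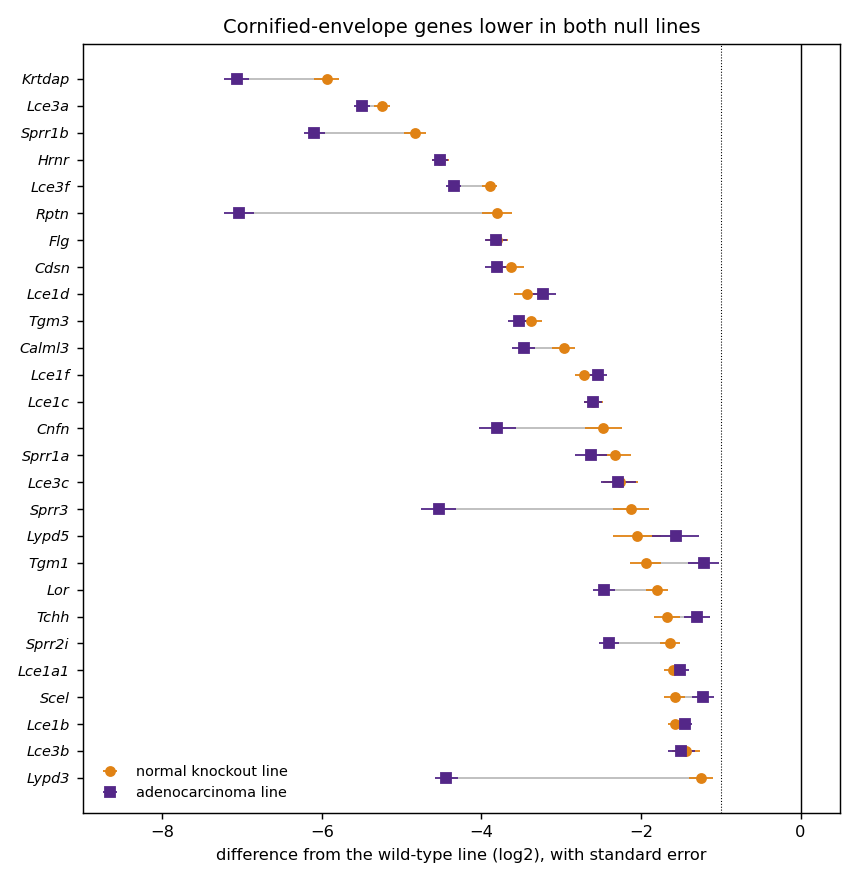
The 27 cornified-envelope genes that were lower in both null lines, with the difference from wild-type in log2 on the x axis, circles for the knockout line, squares for the tumour line and bars for the standard error. Krtdap, Lce3a and Sprr1b are at the top, and Rptn and Lypd3 show the widest gap between the lines.

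Proteases, inhibitors and lipid enzymes of the squamous layer were also lower. Of 23 such genes measured, 8 were lower in both and 0 higher. Capns2, a calpain small subunit, had a wild-type mean of 10.81 (SD 0.21, n = 3) and read 5.23, 5.47 and 5.73 in knockout and 5.30, 5.24 and 5.12 in tumour arrays, and the null lines overlapped near the floor. Asprv1, the protease that processes filaggrin, was 15.8-fold and 39.5-fold lower. Alox12b, a lipoxygenase of the skin barrier, was at least 8.6-fold lower in both. Klk8 and Klk13, kallikrein proteases, were lower by 6.6-fold and 4.7-fold in knockout cells and by 9.1-fold and 4.3-fold in tumour cells. Spink5, a kallikrein inhibitor, was unequal between the null lines: it read 12.90, 12.95 and 12.89, then 11.49, 11.58 and 11.71, then 4.26, 3.95 and 3.97. It was 2.5-fold lower in knockout cells and at least 217-fold lower in tumour cells.

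Keratins split by type. Of 20 basal and squamous keratins, 7 were lower in both lines and 0 higher, with list medians of -0.78 and -3.98. Krt1, the suprabasal keratin of cornifying epithelium, read 10.78, 10.31 and 10.20 in wild-type, 6.29, 6.25 and 6.22 in knockout and 5.96, 6.17 and 5.94 in tumour arrays, 18.1-fold and 21.3-fold lower. Krt4, a keratin of non-cornifying squamous epithelium, was 4.6-fold and 11.8-fold lower. Krt23 was lower in knockout cells by 11.3-fold and in tumour cells by 2.4-fold, 1 of only 5 lower members called further from wild-type in knockout cells. Of the 5 simple epithelial keratins, Krt18 alone was a member and was higher. It read 8.17, 8.09 and 7.83 in wild-type and 10.37, 10.90 and 10.48 in knockout arrays and had a tumour mean of 14.08 (SD 0.073, n = 3). Its partner Krt8 was higher by 0.98 in knockout cells, just short of the rule, and by 2.31 in tumour cells. Krt19 was lower in knockout cells by -4.90 and higher in tumour cells by 1.83.

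Desmosomes, the junctions that anchor keratin filaments, had 4 lower members and 1 higher of 13 measured. The lower count was 2 (of 11 genes) without the dimmest probe sets and 5 with averaged probe sets. Dsg1a read 9.16, 8.81 and 9.08 in wild-type, 4.71, 4.69 and 4.70 in knockout and 3.72, 3.76 and 3.85 in tumour arrays, all null arrays under the floor. Dsg1b, Dsc1 and Dsc3, desmosomal cadherins of stratified epithelium, were lower too, by 17.5-fold, 9.4-fold and 5.8-fold in knockout cells. Dsg2, the desmoglein of simple epithelium, read 7.04, 7.16 and 7.14, then 11.14, 10.84 and 11.02, then 9.50, 9.64 and 9.74. It was higher by 14.8-fold and 5.7-fold. Among 18 tight junction genes 1 was a member, the claudin Cldn7, at 5.70, 5.72 and 5.76 in wild-type, 7.65, 8.02 and 7.86 in knockout and 12.41, 12.27 and 12.58 in tumour arrays.

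Of 41 transcription factors of airway and lung epithelium, 9 were lower in both lines and 0 higher, with list medians of -0.08 and -0.93. Trp63, the master regulator of basal cells, had a wild-type mean of 12.05 (SD 0.049, n = 3) and read 10.40, 10.92 and 10.75 in knockout and 4.29, 4.35 and 4.33 in tumour arrays. Its knockout difference was 2.6-fold, although Krt5 and Krt14 did not differ between those lines beyond the array spread (limma, adjusted p = 0.6765 and 0.2835). None of the 3 other Trp63 probe sets above the floor was also 2-fold lower in both lines. Grhl1 and Grhl3, grainyhead factors of the epidermal barrier, were 4.4-fold and 3.3-fold lower in knockout cells and 15.4-fold and 21.8-fold lower in tumour cells. Klf4 and Ovol1, which promote terminal differentiation, were each 2.4-fold lower in knockout cells. Pax9, Tfap2c, Tbx1 and Meis2 made up the rest, and 7 of the 9 differed between the null lines (limma), beside 31.2% of all lower members. Without the dimmest probe sets or under other choices of probe sets the count was 6 to 9.

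**Figure D3:**
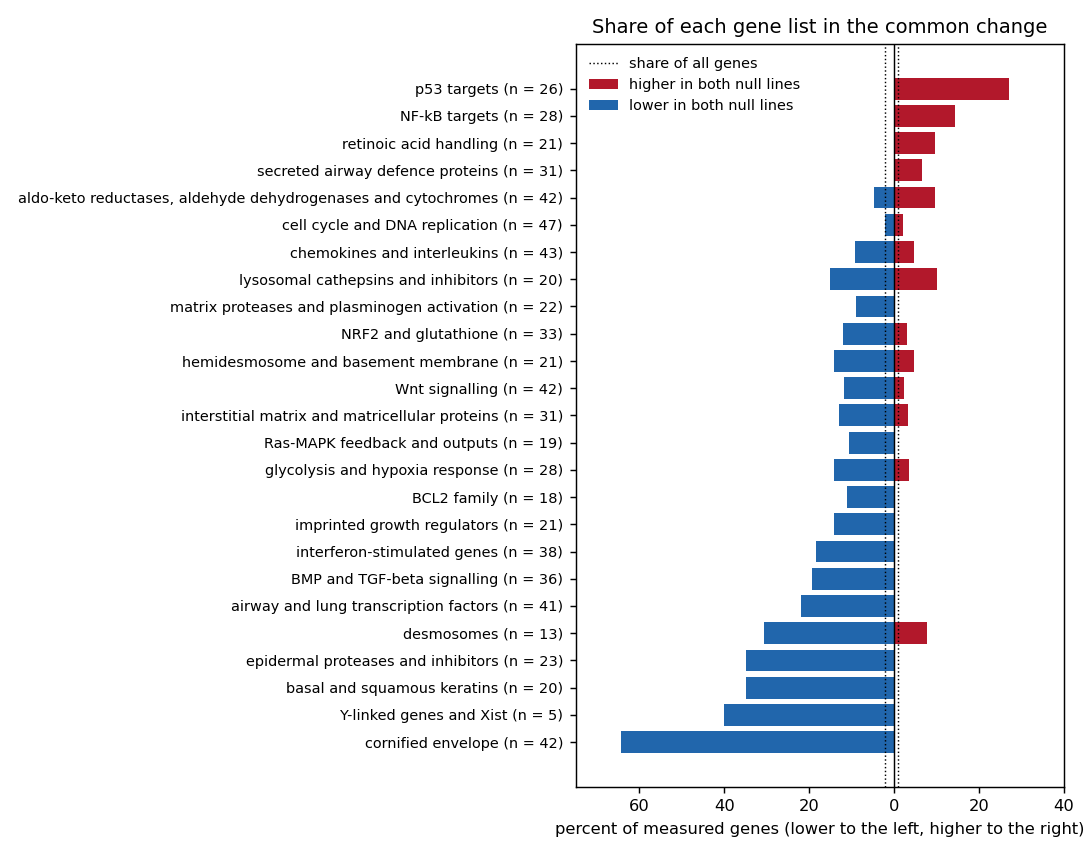
Share of each gene list, as a percent of its measured genes, that was lower (left, blue) or higher (right, red) in both null lines, for pathway lists with at least 2 members; dotted lines mark the shares over all genes, 2.12% lower and 0.792% higher. The cornified envelope, with 27 of 42 lower, has the longest bar to the left and the p53 targets, with 7 of 26 higher, the longest to the right.

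Secreted growth regulators held the member with the largest difference when members are ordered by the smaller of their differences in both lines. Igfbp2, which binds insulin-like growth factors, read 12.85, 12.25 and 12.66 in wild-type, 5.15, 5.24 and 5.28 in knockout and 5.11, 5.22 and 5.35 in tumour arrays. It was 164-fold lower in both null lines, with every null array close to the floor, while Spink5 and Krt16 were further from wild-type in tumour cells alone. It was the only member among 18 genes of the IGF system. Sostdc1, an antagonist of BMP and Wnt ligands, was at least 33.2-fold lower in both. Fstl1, a secreted glycoprotein that binds BMP ligands, read 9.94, 10.06 and 9.49, then 4.56, 4.43 and 5.06, then 4.71, 4.99 and 4.99, at least 25.7-fold lower in both lines. These are bounds, since all 6 null arrays lay under the floor.

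Of 36 genes of BMP and TGF-beta signalling, 7 were lower in both lines and 0 higher. The ligand Bmp2 read 9.94, 10.10 and 9.80 in wild-type, 6.58, 6.30 and 6.56 in knockout and 6.39, 5.95 and 6.58 in tumour arrays. The receptor Bmpr1b was 5.4-fold lower in knockout cells and at least 8.2-fold lower in tumour cells. The inhibitors of differentiation, which are direct targets of BMP signals, were lower in the order Id3, Id4, Id1 in knockout cells. Id3 read 10.64, 10.37 and 10.45, then 6.85, 6.67 and 6.96, then 6.14, 5.85 and 5.56. Tgfbi, a matrix protein induced by TGF-beta, was 2.9-fold lower in knockout cells and at least 120-fold lower in tumour cells. Of 42 Wnt genes 5 were lower and 1 higher. The ligand Wnt4 was 3.0-fold and 29.6-fold lower, the receptor Fzd6 3.9-fold and 7.3-fold lower, and the stem cell receptor Lgr4 2.2-fold and 11.8-fold lower. The higher one, Wnt9a, lay close to the limit, at 1.03 and 1.15. Of 15 ErbB and 21 Notch genes, 0 met the rule. In the mean of the null lines, limma called 3 ErbB genes higher and 1 lower, and 5 Notch genes lower. The shares of all genes were 3.39% higher and 4.8% lower. In tumour cells 5 ErbB genes were called higher and 1 lower, and 7 Notch genes lower. Of all genes, 8.09% were called higher there and 16.6% in either direction. In knockout cells 1 ErbB gene and 2 Notch genes were called higher, and 0 of either list lower. The shares of all genes there were 1.9% higher and 4.88% in either direction.

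Matrix genes were mixed in direction. Of 31 interstitial and matricellular genes, 4 were lower and 1 higher. Efemp1, an extracellular fibulin, read 10.40, 10.65 and 10.74 in wild-type, 4.10, 4.35 and 4.46 in knockout and 3.60, 3.88 and 3.90 in tumour arrays, at least 43.6-fold lower in both. Sparc, a collagen-binding protein, was 9.8-fold and 6.4-fold lower, and Lox, which cross-links collagen, 4.3-fold and 8.5-fold lower. Thbs1, thrombospondin, was higher by 3.4-fold and 15.6-fold. In the basement membrane, Col7a1, which forms anchoring fibrils, was 8.2-fold and 12.1-fold lower, Col4a1 and Col4a2 were lower and the laminin chain Lamb2 was higher. Adamts1 and Mmp2 were the 2 lower members of 22 matrix protease genes.

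Among 20 cathepsins and their inhibitors, the 2 higher members were proteases and the 3 lower ones inhibitors. Ctsz, a lysosomal carboxypeptidase, had the largest measured difference of the higher members, by the smaller of both lines, but from a wild-type signal under the floor: it read 3.16, 3.39 and 3.22 in wild-type, 9.84, 10.13 and 9.90 in knockout and 10.07, 9.95 and 9.74 in tumour arrays. The null lines overlapped, at least 28.0-fold and 27.2-fold higher, bounds that lie below the folds of Cxcl5, and both other probe sets above the floor showed at least 2-fold in each line. Ctse, an aspartic protease, was 2.7-fold and 4.0-fold higher with a wide wild-type spread (8.08, 7.31 and 6.54). The cysteine protease inhibitors Cst3, Cst6 and Csta1 were lower, Csta1 by 9.7-fold and at least 19.7-fold.

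**Figure D4:**
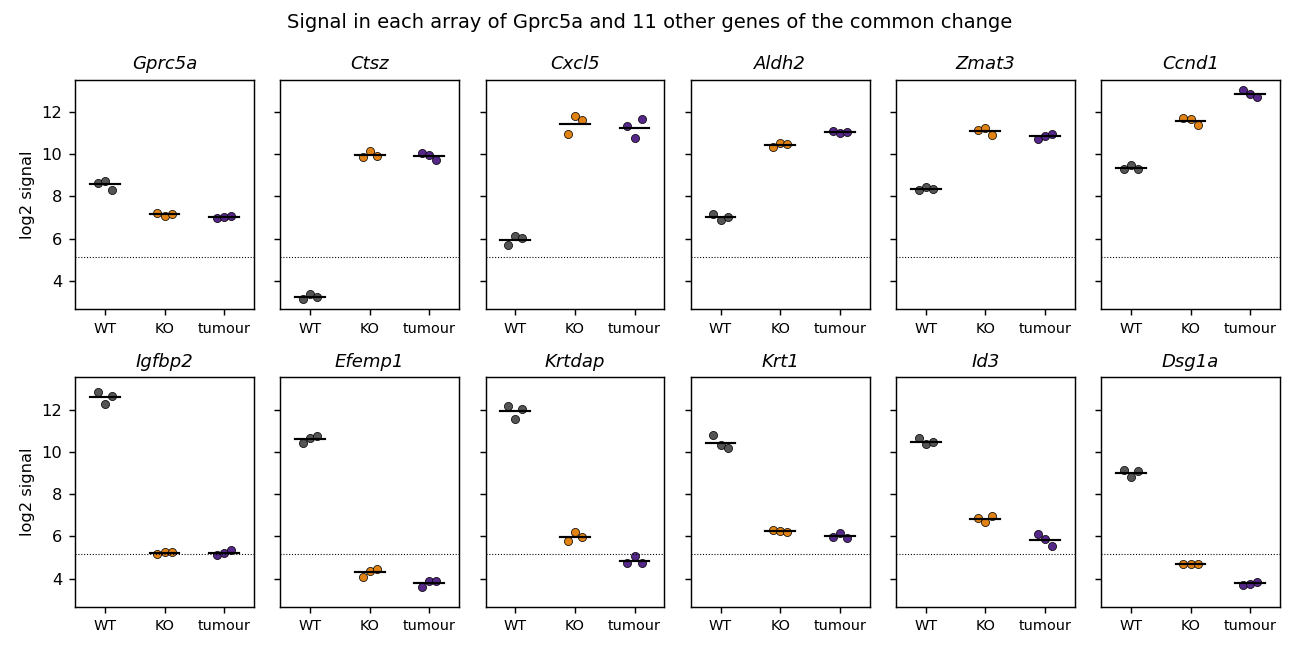
Log2 signal (y axis) of Gprc5a and 11 other members on each array, with 3 points per line, a bar at the mean and a dotted line at the floor of 5.15; WT is wild-type and KO the knockout line. In every panel the 6 null arrays lie on one side of the 3 wild-type arrays, which the rule selects for, and Ctsz crosses the floor upwards while Efemp1 and Dsg1a cross it downwards.

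Of the gene lists used, targets of the p53 tumour suppressor had the highest share of genes higher in both lines. The lists were chosen with earlier results of these data known, so this ranking is only a description. Of 26 measured, 7 were higher and 0 lower by the rule, with list medians of 0.90 and 0.54. In the mean of the null lines, limma called 12 higher and 3 lower, against 3.39% and 4.8% of all genes. It called 13 higher and 1 lower in knockout cells, where 1.9% of all genes were called higher and 4.88% in either direction. In tumour cells it called 9 higher and 3 lower, where these shares were 8.09% and 16.6%. With averaged probe sets, 6 of the 26 were higher by the rule. Zmat3, an RNA-binding protein, read 8.32, 8.43 and 8.34 in wild-type, 11.13, 11.25 and 10.90 in knockout and 10.71, 10.86 and 10.95 in tumour arrays. Eda2r, a TNF-family receptor, read 5.18, 5.74 and 5.54, then 8.64, 8.85 and 8.51, then 8.05, 7.78 and 8.17. Ccng1, cyclin G, read 10.32, 10.25 and 10.50, then 12.41, 12.51 and 12.60, then 12.32, 12.51 and 12.62, and did not separate the null lines. Mdm2, the ubiquitin ligase that degrades p53, was 2.2-fold and 4.1-fold higher, the DNA polymerase Polk 3.3-fold and 3.4-fold, the nuclease Aen 2.5-fold and 4.5-fold, and the spindle protein Psrc1 7.0-fold and 5.4-fold. None of the 7 differed by 2-fold between the null lines in limma, although 4 had an adjusted p under 0.05 at a smaller size and 5 an unadjusted p under 0.05. Over all higher members, 31.9% differed by 2-fold between these lines. Cdkn1a, the cell cycle inhibitor p21, was higher by 1.49 in knockout cells and by 0.58 in tumour cells, outside the rule. Zmat3 also lies in a stretch of chromosome 3 where many genes were above wild-type in both null lines.

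Among 28 NF-kB targets, 4 were higher and 0 lower. The neutrophil chemokine Cxcl5 read 5.69, 6.13 and 6.04 in wild-type, 10.94, 11.80 and 11.61 in knockout and 11.35, 10.75 and 11.65 in tumour arrays, 45.2-fold and 39.3-fold higher. The colony-stimulating factors Csf1 and Csf3 were 4.8-fold and 2.8-fold higher in knockout cells and 6.6-fold and 2.5-fold in tumour cells. Lcn2, an iron-sequestering defence protein, was unequal: 5.54, 5.63 and 5.18, then 10.06, 11.21 and 10.81, then 6.64, 6.24 and 6.63. Ltf, lactoferrin, showed the same order, at 9.8-fold and 2.2-fold higher. Among cytokines, Lif was 2.5-fold and 8.9-fold higher, and Tslp, an epithelial cytokine, was 6.2-fold lower in knockout cells and at least 34.9-fold lower in tumour cells.

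Interferon-stimulated genes had 7 lower and 0 higher members of 38. Ifit1, which binds viral RNA, read 9.99, 10.32 and 9.95 in wild-type, 8.37, 7.43 and 7.30 in knockout and 4.73, 4.59 and 4.84 in tumour arrays. Ifi27 read 11.20, 11.21 and 11.40, then 9.36, 9.30 and 9.36, then 9.33, 9.35 and 9.23, 3.8-fold and 3.9-fold lower. Oasl2, Xaf1, Rsad2, Gbp3 and Ddx60 were the others, of which Ddx60 lay near or under the floor in every line. The count was 4 to 7 under other normalizations, the dim filter and other choices of probe sets. H60c, a ligand of the activating receptor NKG2D, was the only member of 17 MHC class I and natural killer ligand genes, 40.9-fold and 70.4-fold lower.

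Enzymes of retinoid and carbonyl metabolism were found in both directions. Of 42 aldo-keto reductases, aldehyde dehydrogenases and cytochromes, 4 were higher (Akr1b8, Akr1c13, Aldh1a1 and Aldh2) and 2 lower: Aldh1l2, by 4.3-fold and 5.1-fold, and Aldh3b2, by 2.2-fold and 5.6-fold. Of 21 genes that handle retinoic acid, 2 were higher and 0 lower. Aldh1a1, which makes retinoic acid, read 6.10, 6.44 and 6.65 in wild-type, 10.55, 10.90 and 10.89 in knockout and 8.18, 8.60 and 8.73 in tumour arrays. Rdh10, which makes its precursor retinal, read 8.67, 8.79 and 8.68, then 10.12, 10.95 and 10.65, then 12.75, 12.76 and 13.07. The 2 null lines were ordered oppositely for these genes, each with limma's adjusted p under 0.05. Aldh2, the mitochondrial aldehyde dehydrogenase, read 7.19, 6.87 and 7.03, then 10.35, 10.54 and 10.47, then 11.08, 11.01 and 11.06, but none of its 3 other probe sets above the floor was also 2-fold higher in both lines. Akr1c13, an aldo-keto reductase with near-identical relatives, was at least 16.8-fold and 31.2-fold higher. Among glutathione and NRF2 genes, Gpx2, Gstm1, Gstm2 and Gsta2 were lower, Gpx2 by 8.4-fold and 6.8-fold, and the cystine carrier Slc7a11 was higher by 2.1-fold and 3.3-fold.

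Of 47 cell cycle and replication genes, 1 was higher and 1 lower in both null lines, beside 0.792% and 2.12% of all genes. In tumour cells limma called 34 of them higher, against 8.09% of all genes, and 3 lower. In knockout cells it called 1 higher, against 1.9% of all genes, and 5 lower. Called in either direction, the shares of all genes were 16.6% in tumour cells and 4.88% in knockout cells. Ccnd1, cyclin D1, read 9.31, 9.49 and 9.29 in wild-type, 11.72, 11.65 and 11.37 in knockout and 13.03, 12.83 and 12.71 in tumour arrays. Cdkn2a, which encodes cell cycle inhibitors, read 9.07, 8.99 and 8.52, then 6.86, 7.03 and 6.82, then 5.34, 5.12 and 5.12. Abcb1b, a multidrug transporter, was 7.5-fold and 20.8-fold higher, and the phosphatase Ptp4a3 6.4-fold and 10.2-fold higher. In glucose metabolism, the transporter Slc2a1 and the enzyme Aldoc were lower and Pfkfb3 was higher, with 4 lower and 1 higher of 28 genes.

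Some sex-linked and imprinted genes were lower in both null lines, 2 of 5 and 3 of 21 measured, and 0 were higher. Eif2s3y, on the Y chromosome, read 8.94, 8.92 and 9.13 in wild-type and between 3.19 and 3.42 on all 6 null arrays, at least 14.4-fold lower, and Uty was lower as well. Xist, the RNA of the inactive X chromosome, read 7.58 in wild-type, 7.25 in knockout and 11.22 in tumour cells, whose donor was female. The donor's sex is not labelled for the other lines, and its part in the remaining differences was not tested. Peg3, an imprinted gene expressed from the paternal allele, read 11.69, 10.86 and 10.28, then 6.19, 6.61 and 6.11, then 5.96, 6.36 and 5.96. Sgce and Ascl2, also imprinted, lay nearer the limit.

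The null lines were then compared with each other within the members, a contrast that the rule does not use. Of the higher members, 46 (31.9%) differed between them, and of the lower ones 120 (31.2%), against 14.2% of all genes (limma, adjusted p under 0.05 and at least 2-fold). The tumour line was further from wild-type for 36 of the 46 and for 115 of the 120. Members are chosen for large differences in both lines, so this share is not independent of the rule. A difference was not called for 98 higher and 265 lower members, which does not show that the lines were equal. Krt16, a keratin of activated squamous epithelium, illustrates the gap, at 13.44, 12.94 and 12.92, then 11.49, 11.68 and 11.64, then 4.85, 4.78 and 4.85. Ddah1 and Gask1b were higher by 3.2-fold and at least 1.6-fold in knockout cells and by 26.6-fold and at least 12.4-fold in tumour cells.

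Genome position was read from the gene order of the RefSeq table. Gprc5a's neighbours did not stand out: of the 50 nearest measured genes, Eps8 was higher and Rerg lower, and its chromosome, 6, held 21 members among 992 genes (2.12%), against 2.98% elsewhere. Lower members often stood side by side. There were 32 runs of adjacent lower members with 76 genes, against 3 runs with 7 higher members. The lower set is larger, at 385 members against 144, and no expected number of runs was worked out. In the Lce and Sprr runs, probe sets may share signal. The longest were Lce1a1, Lce1b, Lce1a2, Lce1c, Lce1d and Lce1f, then Lce3a, Lce3b, Lce3c, Lce3f and Crct1, then Flg, Hrnr, Rptn and Tchh, all in the epidermal differentiation complex of chromosome 3. The desmosomal cadherins Dsc1, Dsg1a and Dsg1b formed a run of 3.

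Chromosome 3 also held the most higher members, 27, with 39 lower. Medians over windows of 40 neighbouring genes, taken without the dimmest 40% of probe sets, showed the first 120 genes, from Pex2 to Rnf13, above wild-type in both null lines. Their median was 0.66 in knockout cells, with arrays at 0.67, 0.67 and 0.64, and 0.56 in tumour cells, with arrays at 0.53, 0.54 and 0.58, while wild-type arrays lay between -0.06 and 0.05. The 3 windows read 0.73, 0.59 and 0.68 in knockout cells and 0.20, 0.61 and 0.70 in tumour cells, and the next window -0.01 and 0.10. Of the 120, 82 (68.3%) were above wild-type in both lines, against 30.9% on chromosomes other than 3 and 8. The stretch held 18 higher members and 0 lower ones, among them Zmat3, Tm4sf1, Jade1, Mecom, Ect2 and the adjacent Supt20, Exosc8 and Alg5. Window length, filter and boundary were chosen after the values were seen, and the boundary was set by the knockout line alone. The setting tried first kept every gene above the floor and gave 0.69, 0.57, 0.44 and 0.32 in knockout cells and 0.13, 0.31, 0.44 and 0.41 in tumour cells. Over all 188 measured genes from Pex2 to Rnf13, the medians were only 0.29 and 0.15.

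On chromosome 8 the shift was downward along the whole length. Without the dimmest 40% of probe sets, its 646 genes had a median of -0.25 in knockout cells, with arrays between -0.26 and -0.19, and of -0.56 in tumour cells, with arrays between -0.60 and -0.54. With every gene above the floor, these medians were -0.17 and -0.34. These 646 genes included 28 lower members (4.33%) and 2 higher ones, and 64.9% of them were below wild-type in both lines, against 31.8% on chromosomes other than 3 and 8. Among all 932 measured genes of the chromosome, 34 were lower members and 3 higher. Of 22 windows with both medians at or under -0.2, 14 lay on chromosome 8, which has 16 windows. Most members lay elsewhere, 474 of 529 outside both the stretch and chromosome 8. DNA was not measured here.

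**Figure D5:**
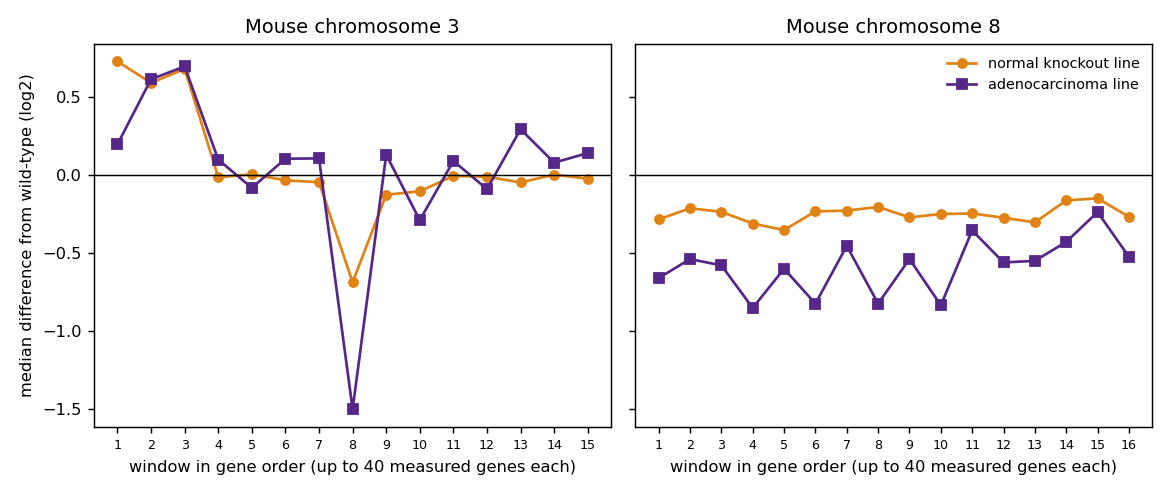
Median difference from wild-type (y axis, log2) of consecutive windows of up to 40 genes in gene order (x axis) on chromosomes 3 and 8, with circles for the knockout line and squares for the tumour line. The first 3 windows of chromosome 3 lie above 0, the dip to -0.69 and -1.50 at window 8 holds epidermal differentiation genes, and all windows of chromosome 8 lie below 0.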

How the data were processed

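The deposited table holds 1 log2 signal per probe set and array for 45101 probe sets; how the authors corrected, summarised and normalised these log2 values is not given in the sources used here. Each of the 34945 probe sets with 1 symbol was considered, 64 control probe sets aside, and the brightest by mean over the 9 arrays stood for its gene, which gave 18193 genes. A gene joined the common change when both null line means differed from the wild-type mean by at least 1 log2 in the same direction. Limma 3.58.1 (lmFit, eBayes) in R 4.3.3 fitted 1 mean per line to all 9 arrays, with 6 residual degrees of freedom. Genes were called at a two-sided Benjamini-Hochberg adjusted p under 0.05 over all genes and at least 2-fold. Arrays give no counts, so their number limits the precision. On simulated data of the same size, the fit called 49 of 50 genes planted at 2.5-fold and 50 of 50 at 4-fold and 8-fold. The 0 of 50 called at 1.5-fold follow from the 2-fold limit. Only the spread between arrays was simulated, so this says nothing of differences from line to line.

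The members and gene lists were chosen with earlier results of these data known. The genes named were Gprc5a, the 15 members per direction with the largest smaller change, up to 6 members of each list, the 5 per direction with the largest difference between the null lines, those beside the limit, and members next to Gprc5a. Krt5, Krt14, Krt8, Krt19, Ivl, Cdkn1a, Xist, Sftpc, Nkx2-1, Gprc5b, Gprc5c and the genes named by position, by promoter or as remaining list members were chosen after their values were seen. Alternatives tried were quantile and median normalization, a dim filter, other choices of probe sets, other fold limits, an intensity trend, 1 group of 6 null arrays, a replicate block and leaving out each array. Positions and sequences came from RefSeq tables.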

Additional observations from a re-analysis of the deposited data

Results flagged for a closer look

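The size of the common change differed between the 2 null lines for 166 of the 529 members (limma, tumour against knockout line, adjusted p under 0.05 and at least 2-fold). Over all genes the share was 14.2%. As tumour minus knockout in log2, the widest gaps among higher members were 4.58 for Cldn7, -4.19 for Lcn2, 3.50 for Krt18, 3.05 for Ddah1 and 2.95 for Gask1b. Among lower members they were -7.54 for Spink5, -6.78 for Krt16, -6.36 for Trp63, -6.05 for Muc15 and -5.84 for Dsc3. All these were named because the difference itself passed the test.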

How the results depend on the processing

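Under the alternatives run, no result reversed its direction. With the 6 null arrays as 1 group, limma called 224 genes higher and 474 lower for null against wild-type, in place of 617 and 874. Without a fold limit these became 3543 and 3829, and at 4-fold 115 and 271. Members numbered 416 higher and 850 lower at 1.5-fold, and 33 and 118 at 4-fold. Leaving out 1 array at a time gave 138 to 150 higher and 377 to 391 lower members, 600 to 646 and 861 to 908 calls, 159 to 171 members that differ between the null lines, and -1.60 to -1.39 for Gprc5a. Averaging all probe sets of a gene gave 120 higher and 333 lower members. Arrays with the same replicate number did not deviate together (correlations -0.142 to 0.119), and with a replicate block the counts stayed at 617, 874 and 166 and Gprc5a at -1.48 (adjusted p = 5.46e-08). For 141 other named genes, the difference of the mean of the null lines was followed, not the rule on each line. Of 2101 such values, 21 in 12 genes fell short of the threshold: Wnt9a, Nt5e, Il1f5, Ddx60, S100a1, Slc7a11, Pfkfb3, Bmf, Sgce, Acta2, Arsb and Eci2. Named genes outside these 12 could still fail the rule. With averaged probe sets, lower basal cell markers went from 4 to 3 and higher cathepsins from 2 to 1. Bmf went to -0.04 and Acta2 to -0.12 once probe sets with the endings _x_at and _s_at were dropped. The chromosome 3 stretch, tested under alternatives chosen after seeing the data, had medians of 0.57 and 0.45 with averaged probe sets and 0.29 and 0.15 over all 188 genes.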
